A study of Mus musculus with 6 samples.

Results

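The 9 genes described here encode dual-specificity MAP kinase phosphatases: Dusp1, Dusp2, Dusp4, Dusp5, Dusp6, Dusp7, Dusp8, Dusp10 and Dusp16. They were taken by exact gene symbol from a table of 38926 symbols, and all 9 were found. The study sorted lineage-negative, Sca1-positive, cKit-positive (LSK) cells, a gate that holds haematopoietic stem cells and multipotent progenitors, from collagenase-digested femur and tibia of C57BL/6 mice aged 8 to 12 weeks. RNA was sequenced from 3 libraries labelled Drd2 Drd3 double knockout (KO) and 3 labelled wild type (WT), with no treatment in either group. Drd2 and Drd3 encode the D2-like dopamine receptors, and the comparison asked which transcripts of LSK cells differ when both are targeted. The labels do not say how the alleles were made, whether animals were pooled or whether replicates came from separate mice, and a p-value here covers only the variation among these libraries, which may be technical.

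MAP kinase phosphatases remove phosphate from both the threonine and the tyrosine of the activation loop of MAP kinases, and so end signals that run through ERK, JNK or p38. Dusp1, Dusp2, Dusp4 and Dusp5 encode nuclear enzymes whose genes are switched on quickly by the kinases they later inactivate. Dusp6 and Dusp7 encode cytoplasmic enzymes that prefer ERK, and Dusp8, Dusp10 and Dusp16 encode enzymes that act mainly on JNK and p38. In blood progenitors the ERK pathway lies downstream of receptors for stem cell factor and other cytokines.

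Values are FPKM, reads per kilobase of gene scaled to library depth by the authors, so levels can be set side by side between genes. Recovered whole reads came to 5245255 to 7143455 in the libraries labelled KO and 5903055 to 6201265 in those labelled WT. Drd3 had 1.62, 3.08 and 3.04 FPKM in the libraries labelled KO and was listed at 0 in those labelled WT, and Drd2 was listed at 0 in all 6. Drd3 was thus found only under the label KO, on 17 to 31 recovered reads per library. What this means for the labels or the alleles was not tested, and each direction below is a direction between labels. KO replicates 1 and 3 stood apart: the Y-linked gene Ddx3y was listed at 0 in both, against 15.1 FPKM for KO replicate 2 and 12.5 to 13.9 FPKM over the WT libraries. The X-linked gene Xist was at 1.96 and 2.01 FPKM in KO replicates 1 and 3 and listed at 0 in every other library. Igkc, the immunoglobulin kappa constant region, reached 3182 and 1173 FPKM in the same 2 libraries, while KO replicate 2 had 4.93 FPKM and no WT library more than 2.48 FPKM. The gate's defining genes were present in every library: Kit was at 82.5 to 129 FPKM in those labelled KO and 105 to 150 FPKM in those labelled WT, and Ly6a, which encodes Sca1, at 114 to 161 FPKM in those labelled KO and 110 to 129 FPKM in those labelled WT. Among lineage genes that the gate should lack, Cd3e, Cd8a and Ms4a1 were at most 0.238 FPKM in all 6.

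Groups were compared with limma's moderated test on log2(FPKM + 1), two-sided, over the 11371 genes averaging 1 FPKM or more, and a gene was called at a Benjamini-Hochberg adjusted p under 0.05. Of the 9 phosphatase genes, 8 passed the filter and none was called by limma, where 10.9% of all tested genes were, 5.43% lower and 5.48% higher in the libraries labelled KO. Members with an unadjusted p under 0.05 numbered 3 (Dusp1, Dusp2 and Dusp5), where 27.5% of all tested genes had one. The libraries of the groups did not overlap in 2 of the 8, both lower in the libraries labelled KO, where 32.8% of all tested genes did not overlap (16.6% lower and 16.2% higher). The median log2 fold change of the 8 was -0.019, and that of all tested genes -0.002.

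The phosphatases covered a wide range of levels, and the same 3 genes led in every library. Dusp1, Dusp2 and Dusp5 together held 89.2 to 91.7% of the summed FPKM of the 9 genes in the libraries labelled KO and 91.4 to 92.0% in those labelled WT. By mean over 6 libraries Dusp1 ranked 144, Dusp2 ranked 174 and Dusp5 ranked 213 among all listed genes, while Dusp6 ranked 1473. The sum over the 9 genes was 798 to 1034 FPKM in the libraries labelled KO and 974 to 1104 FPKM in those labelled WT, and these ranges overlapped.

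**Figure D1:**
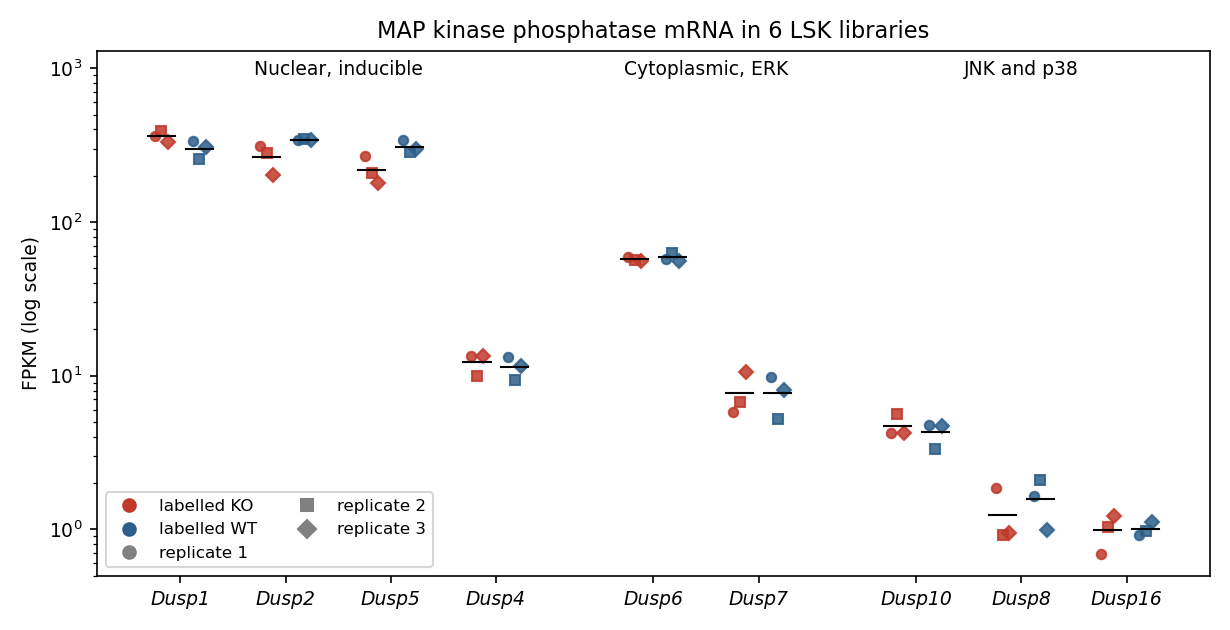
FPKM (log axis) of the 9 phosphatase genes, grouped by role; red points are the 3 libraries labelled KO, blue points the 3 labelled WT, marker shapes give the replicate and bars the group mean. Dusp1, Dusp2 and Dusp5 sit near 178 to 390 FPKM in every library, Dusp6 at 55.9 to 62.9 FPKM and the other 5 genes at most 13.5 FPKM.

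The order of the levels differed between the groups only at the top. In the libraries labelled KO, Dusp1 came first and its range of 332 to 390 FPKM lay above the 202 to 314 FPKM of Dusp2, which overlapped the 178 to 270 FPKM of Dusp5. In those labelled WT the ranges of Dusp2 (340 to 348 FPKM), Dusp5 (285 to 340 FPKM) and Dusp1 (257 to 336 FPKM) ran into each other from neighbour to neighbour. Below them the order was the same in both groups: Dusp6, Dusp4, Dusp7, Dusp10, Dusp8 and Dusp16, with overlap in each group between Dusp4 and Dusp7 and between Dusp8 and Dusp16.

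The proximal promoters of the 3 most abundant members are shown because these genes share a nuclear, inducible class while their fold changes, given below, differ in sign. The sequences lie before the RefSeq start on build GRCm38.p6, in the direction of the gene: chr17:26508473-26508722 (minus strand) for Dusp1, chr19:53528895-53529108 (plus strand, ended where the GENCODE gene begins, short of the RefSeq start) for Dusp5 and chr2:127335909-127336158 (plus strand) for Dusp2. For Dusp1 this window lies inside the GENCODE gene, which spans 26505590 to 26562128. Capitals mark the core TGACG of the cAMP response element (CRE) on either strand, the E-box CACGTG and the CArG box, the site known for serum response factor.
Dusp1: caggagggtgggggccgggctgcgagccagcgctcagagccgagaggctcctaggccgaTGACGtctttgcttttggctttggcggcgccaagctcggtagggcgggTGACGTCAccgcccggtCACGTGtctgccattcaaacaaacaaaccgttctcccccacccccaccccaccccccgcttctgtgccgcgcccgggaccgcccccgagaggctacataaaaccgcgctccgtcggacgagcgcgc
Dusp5: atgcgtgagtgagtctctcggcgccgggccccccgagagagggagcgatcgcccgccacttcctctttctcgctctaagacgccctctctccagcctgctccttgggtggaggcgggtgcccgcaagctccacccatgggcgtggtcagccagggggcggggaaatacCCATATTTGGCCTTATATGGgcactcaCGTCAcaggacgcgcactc
Dusp2: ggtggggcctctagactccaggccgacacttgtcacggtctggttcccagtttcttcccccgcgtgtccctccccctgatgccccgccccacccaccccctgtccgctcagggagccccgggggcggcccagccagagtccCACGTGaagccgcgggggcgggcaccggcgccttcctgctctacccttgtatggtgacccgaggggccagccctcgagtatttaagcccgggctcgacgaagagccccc
Windows of 250 bases before the start were found for 8 of the 9 members, all but Dusp4. The full palindrome TGACGTCA, which holds the core on both strands, was in 1.55% of 32851 windows; it occurred 1 time before Dusp1, beginning 143 bases before the start, and 2 times before Dusp8. Another core without the palindrome began 191 bases before the start of Dusp1, and 1 core each lay before Dusp5 and Dusp16; 17.8% of windows hold a core. A pair of CArG boxes, beginning 82 and 72 bases before the RefSeq start, was found for Dusp5 alone of the 8, and 1.47% of windows hold this motif. The E-box, in 6.02% of windows, occurred before Dusp1 and Dusp2, and the AP-1 motif TGANTCA, in 6.75% of windows, in none of the 8. Such matches describe letters in a window and were not tied to any measurement.

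Dusp5, which encodes a nuclear phosphatase specific to ERK, gave the lowest p of the members (chromosome 19, 53529109 to 53542431, build GRCm38). Its values were 270, 207 and 178 FPKM for KO replicates 1, 2 and 3, against 340, 285 and 299 FPKM in the WT replicates of the same numbers. Every library labelled KO lay below every library labelled WT, and replicate 1 was the highest of its group under both labels. The mean was 218 ± 47.3 FPKM in the libraries labelled KO and 308 ± 28.6 FPKM in those labelled WT (SD, n = 3 each), a log2 fold change of -0.51 ± 0.15 (SE; 95% interval -0.85 to -0.18) that missed the threshold (limma adjusted p = 0.0578). It passed without the library labelled KO replicate 1 (-0.68, limma adjusted p = 0.0177), and in 4 other settings: a filter at a mean of 5 FPKM (0.0399), the replicate number as a block (0.0466), quantile normalization (0.0467), and limma's voom on the recovered reads, chosen after the data were seen (0.0279). Over all alternatives its limma adjusted p ran from 0.0177 to 0.189 and its log2 fold change from -0.68 to -0.38. With the libraries labelled KO replicates 1 and 3 left out it was -0.57 (limma adjusted p = 0.0682). In a sorted population, fewer cells of a type that carries a transcript and less of it per cell cannot be told apart.

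Dusp2, which encodes the nuclear phosphatase PAC-1 of activated blood cells, also had groups that did not overlap (chromosome 2, 127336159 to 127338376). Its level was 314, 283 and 202 FPKM for KO replicates 1, 2 and 3, against 340, 348 and 344 FPKM in those labelled WT. The coefficient of variation was 21.8% in the libraries labelled KO and 1.11% in the tightly grouped WT libraries, and the lowest value was that of KO replicate 3. The mean was 266 ± 58 FPKM in the libraries labelled KO and 344 ± 3.8 FPKM in those labelled WT (SD, n = 3 each), a log2 fold change of -0.39 ± 0.15 (SE; 95% interval -0.73 to -0.056) that did not pass (limma adjusted p = 0.125; 0.0573 to 0.499 over its alternatives). Without KO replicate 3 the difference was -0.21, and with KO replicates 1 and 3 left out it was -0.28 (limma adjusted p = 0.133 and 0.123).

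Dusp1, the founding member of the family, which acts on p38 and JNK as well as ERK, had a positive fold change that did not pass (chromosome 17, 26505590 to 26562128). It had 365, 390 and 332 FPKM in the libraries labelled KO and 336, 257 and 306 FPKM in those labelled WT. The groups overlapped, since the library labelled KO replicate 3 lay just under that labelled WT replicate 1. The mean was 362 ± 29.1 FPKM in the libraries labelled KO and 300 ± 39.8 FPKM in those labelled WT (SD, n = 3 each), with a log2 fold change of 0.28 ± 0.12 (SE; 95% interval 0.013 to 0.54; limma adjusted p = 0.163; 0.0752 to 0.476 over its alternatives). It was 0.17 without the library labelled WT replicate 2 and 0.39 with KO replicates 1 and 3 left out (limma adjusted p = 0.476 and 0.204). Exons of Dusp1 overlap those of Ergic1 on the other strand in GENCODE M21, and exons of Dusp5 and Dusp8 overlap opposite-strand genes known only as models. The libraries carry no strand, so reads of such partners cannot be told apart. For Dusp1 the gene length implied by the authors' FPKM was 2697 bases, not the 3311 exon bases of GENCODE. Whether its exons that overlap Ergic1 were counted is not known.

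Within each library, Dusp1 stood 1.35, 1.89 and 1.87 times as high as Dusp5 in the libraries labelled KO replicates 1, 2 and 3, against 0.987, 0.901 and 1.02 times in those labelled WT. These ratios do not overlap; the pair was chosen after its values were seen, and no test was made. The ratio of Dusp1 to Dusp2 was 1.16, 1.38 and 1.65 in the libraries labelled KO and 0.987, 0.739 and 0.891 in those labelled WT. The ratio of Dusp2 to Dusp5 was 1.16, 1.37 and 1.13 in the libraries labelled KO and 1, 1.22 and 1.15 in those labelled WT, and these ranges overlapped.

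Dusp4, the remaining nuclear inducible member, which acts on ERK and JNK, was far lower (chromosome 8, 34807297 to 34819894). It had 13.5, 10 and 13.5 FPKM in the libraries labelled KO and 13.2, 9.34 and 11.5 FPKM in those labelled WT. The groups overlapped, and the log2 fold change was 0.11 ± 0.17 (SE; 95% interval -0.26 to 0.49; limma adjusted p = 0.705). With KO replicates 1 and 3 left out it was -0.15. As a class, the nuclear inducible genes summed to 962, 890 and 725 FPKM in the libraries labelled KO and to 1029, 899 and 960 FPKM in those labelled WT, and none of the 4 passed limma's test (3 at an unadjusted p under 0.05, and 1 with voom). Voom called 1569 of all 11371 tested genes.

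Dusp6, the cytoplasmic ERK phosphatase also known as MKP-3 and a standard readout of ERK activity, varied least of the members over the 6 libraries (chromosome 10, 99263231 to 99267489). It had 59.4, 56.6 and 56.1 FPKM in the libraries labelled KO and 57.7, 62.9 and 55.9 FPKM in those labelled WT. All 6 values lay within a narrow band, and the highest was that of WT replicate 2. The mean was 57.3 ± 1.78 FPKM in the libraries labelled KO and 58.8 ± 3.64 FPKM in those labelled WT (SD, n = 3 each). Its log2 fold change of -0.035 ± 0.093 (SE; limma adjusted p = 0.842) has a 95% interval of -0.24 to 0.17, which is 0.845 to 1.13 times the WT level. It rested on 851 to 1198 reads per library labelled KO and 976 to 1031 per library labelled WT.

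Dusp7, the other cytoplasmic member, also prefers ERK (chromosome 9, 106368632 to 106375724). It had 5.82, 6.73 and 10.5 FPKM in the libraries labelled KO and 9.78, 5.24 and 8.06 FPKM in those labelled WT. The values were spread alike in both groups, and the log2 fold change was -0.0029 ± 0.25 (SE; limma adjusted p = 0.996). Its 95% interval, -0.56 to 0.55, is much wider than that of Dusp6. Dusp9, a further cytoplasmic ERK phosphatase outside the 9 genes, had 0.713, 0.425 and 0.0677 FPKM in the libraries labelled KO and 0.647, 0.689 and 0.353 FPKM in those labelled WT, under the filter. The cytoplasmic pair summed to 63.3 to 66.6 FPKM in the libraries labelled KO and 63.9 to 68.1 FPKM in those labelled WT.

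The members directed at JNK and p38 were the lowest of the 9 genes. Dusp10, also known as MKP-5, had 4.24, 5.61 and 4.24 FPKM in the libraries labelled KO and 4.79, 3.31 and 4.74 FPKM in those labelled WT (chromosome 1, 184013302 to 184075636; log2 fold change 0.11 ± 0.19 SE, 95% interval -0.30 to 0.53, limma adjusted p = 0.736). Dusp8 had 1.85, 0.921 and 0.946 FPKM in the libraries labelled KO and 1.64, 2.1 and 0.986 FPKM in those labelled WT (chromosome 7, 142079490 to 142095843; -0.20 ± 0.26 SE, 95% interval -0.79 to 0.38, limma adjusted p = 0.658). Both overlapped between the groups. With KO replicates 1 and 3 left out, Dusp10 was at 0.34 and Dusp8 at -0.40 on the log2 scale (limma adjusted p = 0.436 and 0.446).

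Dusp16, also known as MKP-7, had a mean just under 1 FPKM and did not pass the filter (chromosome 6, 134715468 to 134792625). Its values were 0.688, 1.04 and 1.23 FPKM in the libraries labelled KO and 0.921, 0.981 and 1.11 FPKM in those labelled WT, so the WT values lay inside the KO range. With no filter its log2 fold change was -0.021 ± 0.17 (SE; limma adjusted p = 0.962 over 19373 genes). These counts are small, with 25 to 65 reads for Dusp8 and 38 to 55 for Dusp16 per library labelled KO, against 30 to 60 and 44 to 53 in those labelled WT.

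**Figure D2:**
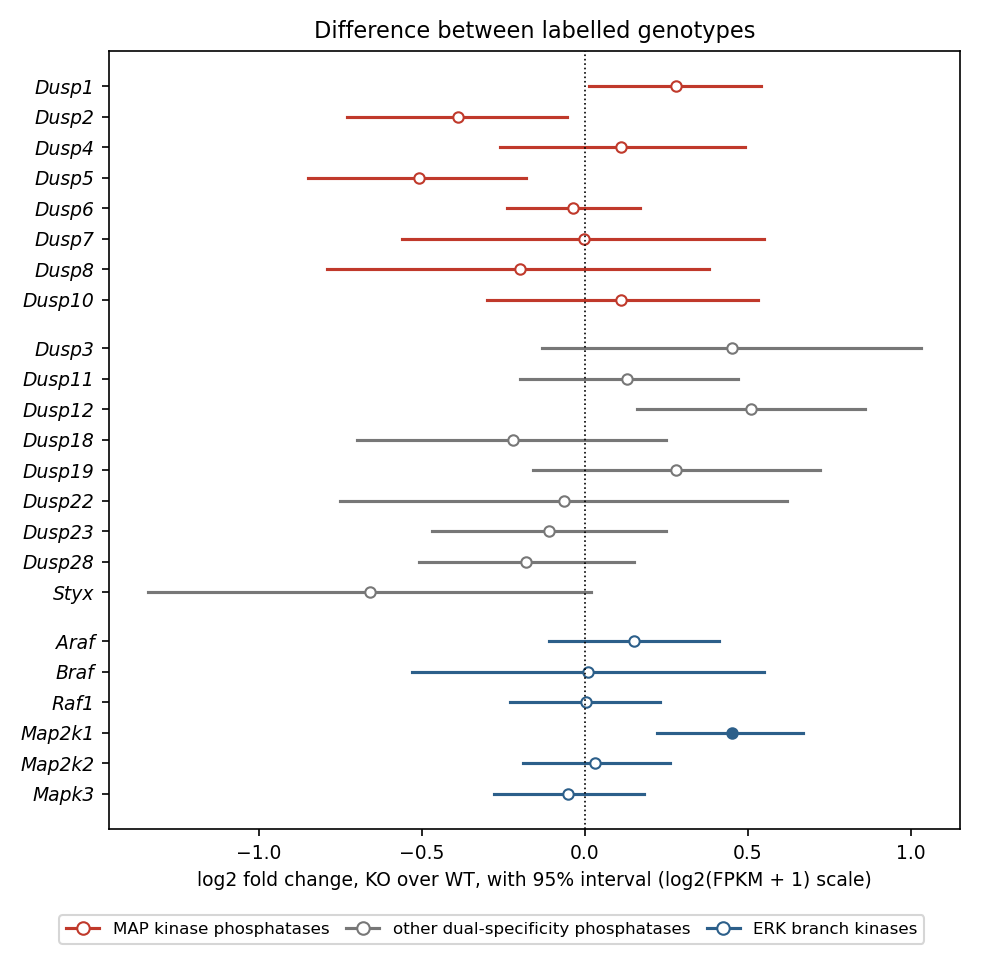
Log2 fold change of KO over WT on the log2(FPKM + 1) scale with its 95% interval, for the 8 phosphatase genes that passed the filter (red), 9 other dual-specificity phosphatase genes (grey) and ERK branch kinases (blue). Filled points passed limma's test at an adjusted p under 0.05, which only Map2k1 did; the intervals of Dusp2 and Dusp5 lie below 0, that of Dusp1 just above it, and Dusp6 has the narrowest of the phosphatases.

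**Figure D3:**
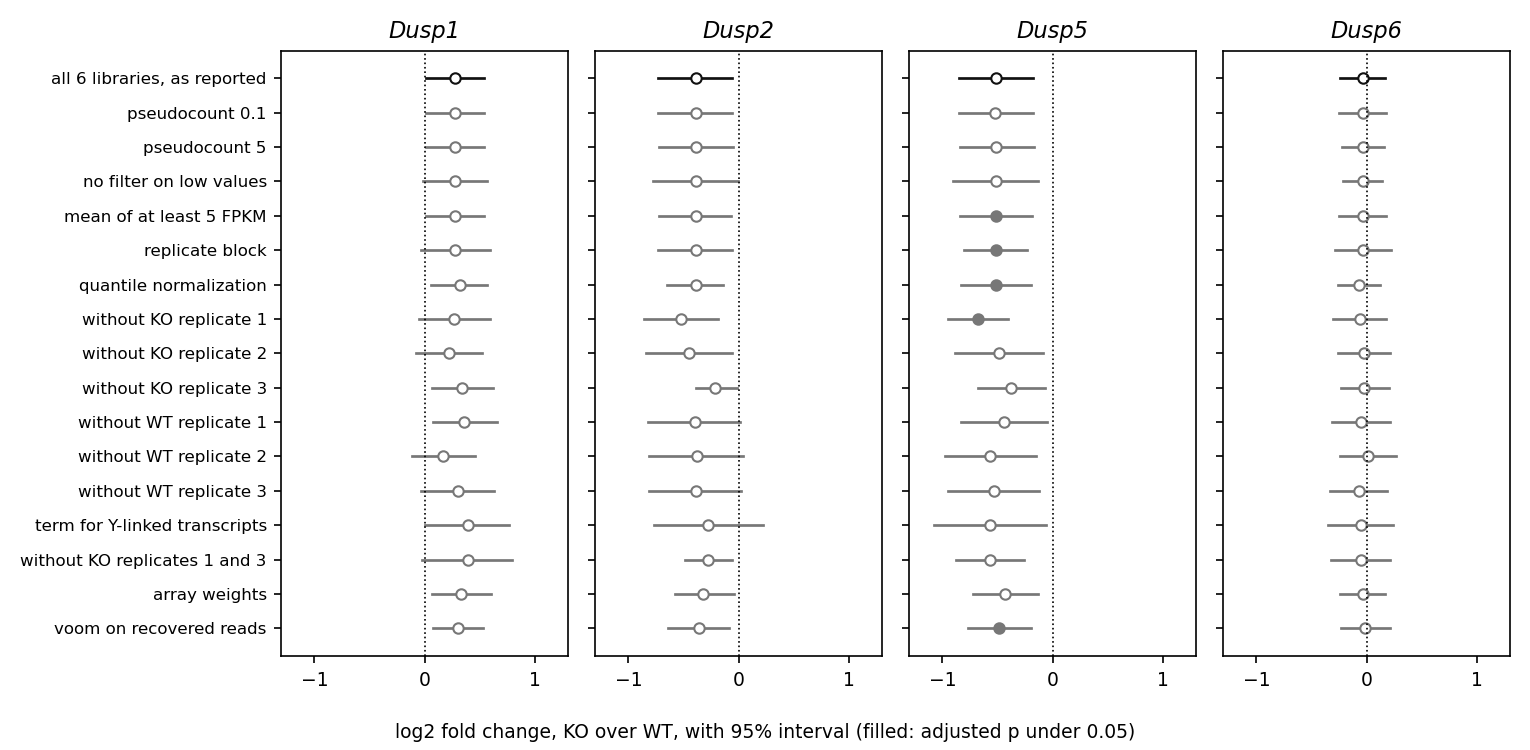
Log2 fold change of KO over WT with its 95% interval (x axis) for Dusp1, Dusp2, Dusp5 and Dusp6 in the comparison as reported and under 16 alternatives (y axis). Dusp5 stays below 0 throughout and is filled (adjusted p under 0.05) in 5 of the alternatives, the estimates of Dusp1 stay above 0 and those of Dusp2 below 0 without being filled in any, and Dusp6 stays within -0.072 to 0.013.

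Around the family, 17 other dual-specificity phosphatase genes were in the table, 9 passed the filter and none was called by limma (1 at an unadjusted p under 0.05, and 0 with voom), with a median log2 fold change of -0.064. Dusp12, chosen after its values were seen, was at 6.96 ± 0.579 FPKM in the libraries labelled KO and 4.60 ± 0.673 FPKM in those labelled WT, did not overlap and did not pass (limma adjusted p = 0.0686). Of 3 tyrosine phosphatases that bind MAP kinases, Ptpn7 alone passed the filter and it was not called by limma (unadjusted p over 0.05; also not with voom): 72.8 ± 9.41 FPKM in the libraries labelled KO and 78.7 ± 5.52 FPKM in those labelled WT.

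Among the kinases that these enzymes act on and those upstream, 1 was called, where 10.9% of all tested genes were. Of 7 ERK branch kinases 1 rose and none fell (median 0.01), and of 3 tested JNK and 6 tested p38 branch kinases none was called by limma, with or without voom, or had an unadjusted p under 0.05 (medians -0.062 and 0.10). Mapk3, which encodes ERK1, averaged 30.1 ± 1.08 FPKM in the libraries labelled KO and 31.3 ± 2.51 FPKM in those labelled WT (limma adjusted p = 0.791). Map2k1, which encodes the ERK activator MEK1, rose to 33 ± 0.935 FPKM in the libraries labelled KO, against 24 ± 1.6 FPKM in those labelled WT (0.45 ± 0.10 SE, limma adjusted p = 0.0244). It missed the threshold without KO replicate 2 and without WT replicates 1, 2 and 3 (limma adjusted p = 0.0522, 0.0618, 0.116 and 0.0782), with the block (0.064), with Y-linked transcripts as a covariate (0.136) and with KO replicates 1 and 3 left out (0.104).

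None of 10 tested genes of ERK feedback and output was called by limma (4 at an unadjusted p under 0.05, and 2 with voom), and their median log2 fold change was -0.00057. An unadjusted p under 0.05 was held by 27.5% of all tested genes. Egr1, an immediate early transcription factor, was at 316 ± 44 FPKM in the libraries labelled KO and 231 ± 49.5 FPKM in those labelled WT (limma adjusted p = 0.0988), and passed with voom on the recovered reads (0.0349). Phlda1, named after its values were seen, went the other way, at 36.5 ± 11.1 FPKM in the libraries labelled KO and 62.2 ± 13.7 FPKM in those labelled WT. Its groups did not overlap (-0.78 ± 0.23 SE, limma adjusted p = 0.0633), and it passed with voom (0.0364). Spry1 and Spry2, inhibitors of receptor tyrosine kinase signalling, averaged 33.3 ± 11 and 2.36 ± 0.365 FPKM in the libraries labelled KO and 21.6 ± 4.14 and 1.51 ± 0.271 FPKM in those labelled WT (limma adjusted p = 0.12 and 0.204). Etv5, a transcription factor induced by ERK, was at 9.58 ± 0.663 FPKM in the libraries labelled KO and 10.1 ± 0.654 FPKM in those labelled WT (limma adjusted p = 0.761). Spry4, at no more than 0.804 FPKM in any library, was under the filter.

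Of 19 genes of the immediate early and dissociation response, 2 rose and 3 fell (median 0.031), where 5.48% of all tested genes rose and 5.43% fell. Ier3 fell to 117 ± 2.04 FPKM in the libraries labelled KO, against 238 ± 1.86 FPKM in those labelled WT (-1.02 ± 0.081 SE, limma adjusted p = 0.000204), and was called under all 16 alternatives. The transcription factor genes Klf2 and Klf6 rose, to 126 ± 41.5 and 112 ± 28.6 FPKM in the libraries labelled KO, against 48.7 ± 11.9 and 52.9 ± 11.8 FPKM in those labelled WT (limma adjusted p = 0.0116 and 0.0124). Both missed the threshold without WT replicate 2 (limma adjusted p = 0.0594 and 0.0506), with no filter (0.0574 and 0.0566), with the Y-linked covariate (0.134 and 0.144) and with KO replicates 1 and 3 left out (0.144 and 0.124). Fosb, an AP-1 gene named after its values were seen, fell to 35.4 ± 14.2 FPKM in the libraries labelled KO, against 74.9 ± 2.87 FPKM in those labelled WT (-1.15 ± 0.26 SE, limma adjusted p = 0.0235). The call of Fosb was lost when WT replicate 1, 2 or 3 was left out (limma adjusted p = 0.084, 0.0863 and 0.0711), with no filter (0.0917) and with the Y-linked covariate (0.203). Fos and Jun, the archetypal immediate early genes, averaged 1228 ± 91.9 and 194 ± 38.5 FPKM in the libraries labelled KO and 1307 ± 186 and 213 ± 2.78 FPKM in those labelled WT and were not called (limma adjusted p = 0.712 and 0.509).

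Of 5 genes whose proteins bind AU-rich mRNA, 2 fell and none rose (median -0.38), where 5.43% of all tested genes fell. AU-rich decay destabilises Dusp1 and other short-lived transcripts. Elavl1, 1 of the 5, is known instead for stabilising such transcripts (log2 fold change -0.0068, limma adjusted p = 0.982). The list as drawn up also held Tnfaip3, which encodes the NF-kB inhibitor A20 and no decay factor, and with it 3 of 6 fell (median -0.49). Zfp36, which encodes the decay factor tristetraprolin and is also 1 of the 3 immediate early genes that fell, was lower at 583 ± 106 FPKM in the libraries labelled KO, against 881 ± 61.2 FPKM in those labelled WT (-0.61 ± 0.13 SE, limma adjusted p = 0.0212). It missed the threshold without KO replicate 2 and without WT replicates 1, 2 and 3 (limma adjusted p = 0.0652, 0.0883, 0.0805 and 0.0663), with no filter (0.0884) and with the Y-linked covariate (0.0885). Khsrp, another decay factor, fell by 2.0 and Tnfaip3 fell by 0.95 on the log2 scale (limma adjusted p = 0.000315 and 0.00304), and both were called under all 16 alternatives.

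**Figure D4:**
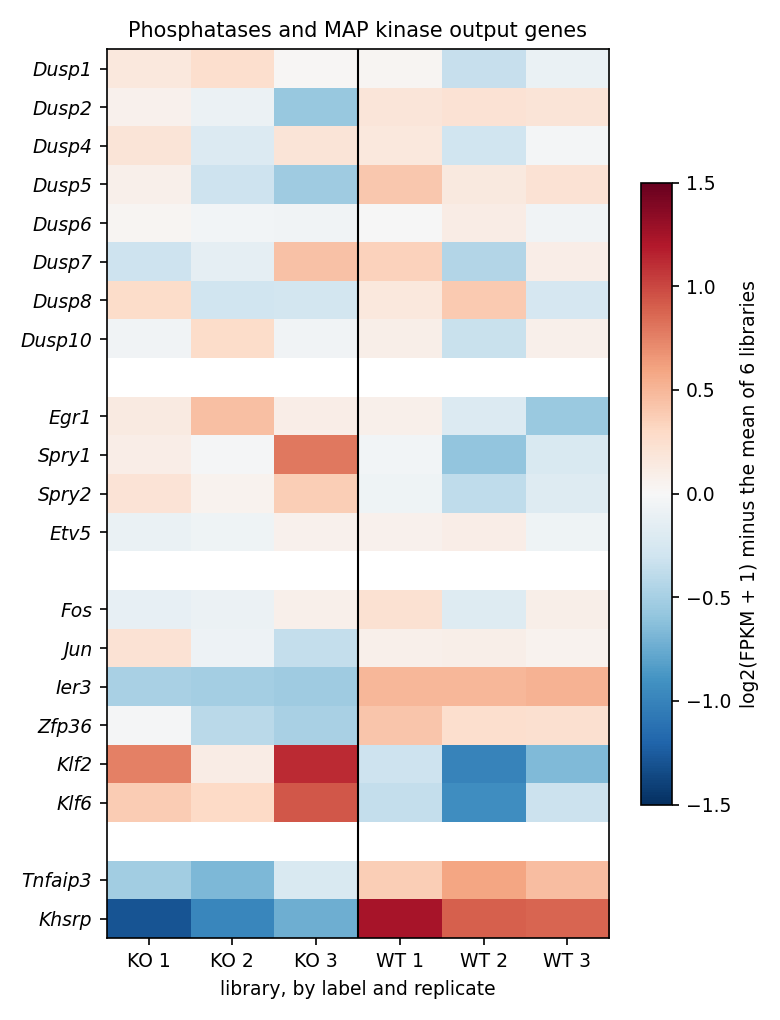
Colour shows log2(FPKM + 1) minus the mean of the 6 libraries for the 8 phosphatase genes that passed the filter, for genes of MAP kinase output, the immediate early response and mRNA decay, and for Tnfaip3 (rows), in each library by label and replicate (columns). Dusp5 and Dusp2 are lowest in KO replicate 3, Dusp6 is near 0 in all 6 libraries, and Ier3, Tnfaip3 and Khsrp split the labels more sharply than any phosphatase.

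Over the 6 libraries, the genes whose log2 values were most like those of Dusp1 among 5511 compared (mean of 10 FPKM or more) were the haemoglobin genes Hba-a2, Hbb-bs and Hba-a1 with Pearson's r of 0.985, 0.973 and 0.973, and Thap7 and Dhx32 with 0.978 and 0.971. Hba-a1 was at 253 to 476 FPKM in the libraries labelled KO and 133 to 233 FPKM in those labelled WT. For Dusp6 the closest were Clip1, Nucb1, Scamp3, Cpsf3l and Poc1a with r of 0.979, 0.937, 0.935, 0.931 and 0.926. These libraries differ in genotype label and depth, and with 6 points and many genes such values describe likeness alone.

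Some markers of cells within and outside the gate were also called, where 10.9% of all tested genes were (5.43% lower and 5.48% higher in the libraries labelled KO). Of 8 tested erythroid markers 7 rose, and the list summed to 1962 to 3293 FPKM in the libraries labelled KO and 1224 to 1423 FPKM in those labelled WT. Car2 held most of that sum, with 1287 to 1721 FPKM in the libraries labelled KO and 920 to 976 FPKM in those labelled WT. Of 10 gate markers 4 rose and 2 fell, with sums of 1605 to 1915 FPKM in the libraries labelled KO and 1859 to 1967 FPKM in those labelled WT. Of 11 neutrophil markers none was called by limma (5 at an unadjusted p under 0.05, and 2 with voom), with a median log2 fold change of -0.64 and sums of 601 to 1349 FPKM in the libraries labelled KO and 892 to 952 FPKM in those labelled WT. Mpo, a gene of early granules, held most of that sum in every library labelled KO (384 to 918 FPKM, against 448 to 568 FPKM in those labelled WT; 0.33), while the later genes S100a8, S100a9, Camp and Ngp had log2 fold changes of -1.53, -1.04, -1.99 and -2.26, none of them called. Ltf, Lcn2 and Retnlg, also later genes, were at -1.31, -0.37 and 0.21 and were not called. Each of these later genes overlapped between the groups. Ngp, for example, had 37.2, 0.713 and 4.09 FPKM for KO replicates 1, 2 and 3, against 22.1 to 43.7 FPKM in the libraries labelled WT. Of 6 mast cell and basophil markers 3 rose, Tpsb2, Cma1 and Gata2 (176 to 264 FPKM in the libraries labelled KO and 140 to 180 FPKM in those labelled WT). Much of that sum was Gata2, at 116 to 134 FPKM in the libraries labelled KO and 83.1 to 94.9 FPKM in those labelled WT. Tpsb2 and Cma1 reached at most 14 and 12.2 FPKM. Cpa3, Mcpt8 and Fcer1a, at 0.11, -0.33 and 1.21 on the log2 scale, were not called by limma. Of 5 T and NK cell markers 1 rose and 1 fell (193 to 303 FPKM in the libraries labelled KO, 358 to 420 FPKM in those labelled WT), with Cd3g at 0 in all 6 libraries. Nkg7, the gene that fell, made up nearly all of that sum (187 to 291 FPKM in the libraries labelled KO, 352 to 417 FPKM in those labelled WT), Klrb1c rose, and no other gene of the list exceeded 4.7 FPKM. Of 4 macrophage and dendritic markers 1, Cd68, fell (416 to 494 FPKM in the libraries labelled KO, 385 to 454 FPKM in those labelled WT, mostly Lyz2), and of 5 endothelial and stromal markers 1 fell (21.1 to 27.1 FPKM in the libraries labelled KO, 25.3 to 35.6 FPKM in those labelled WT). Of 7 B and plasma cell markers none was called by limma (1 at an unadjusted p under 0.05, and 0 with voom), with sums of 230 to 3663 FPKM in the libraries labelled KO, where Igkc alone reached 3182 FPKM, and 429 to 452 FPKM in those labelled WT. Of 5 tested lineage genes that the gate should lack 1 rose (46.1 to 50.5 FPKM in the libraries labelled KO and 46.8 to 55.5 FPKM in those labelled WT). The part of these cells in the values of the phosphatases was not tested.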

How the data were processed

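Per the labels' protocols, sorted cells were lysed directly, SMART-Seq v4 gave the cDNA and Nextera XT the libraries, which carry no strand. Build mm10, DESeq2 1.18.1, HTSeq 0.6.1, TopHat2 2.1.1 and bcl2fastq 2.19.1.403 are listed in the submitters' processing notes, with no role or order. No source used here names the annotation. The authors deposited 1 table of FPKM values, 1 column per library. Whole reads were recovered from the ratios of a gene's FPKM between libraries, which were ratios of whole numbers for all 17183 genes detected in at least 2 libraries (tolerance 1e-09). A common factor may be missing, so reads are lower bounds. For 6 of the 9 phosphatase genes the implied length equalled the GENCODE M21 exon length, and for Dusp1, Dusp6 and Dusp16 it did not.

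Libraries labelled KO were compared with those labelled WT by limma's lmFit and trended eBayes (version 3.58.1, under R 4.3.3) on log2(FPKM + 1), fitted and adjusted by Benjamini-Hochberg over the whole table; the filter on a mean of at least 1 FPKM was kept when libraries were left out. The pseudocount shrinks the fold changes of low genes. The script was tested on simulated data. Figures used Python 3.11.15 and matplotlib 3.10.9. The members and gene lists were chosen with earlier results of these data known. Named by rule were all members, the 5 genes most like Dusp1 and Dusp6, up to 4 called genes of each pathway list, and fixed genes of ERK signalling; 1 gene of the rule is not reported here. Promoter sequences are RefSeq's on build GRCm38.p6.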

Additional observations from a re-analysis of the deposited data

How the results depend on the processing

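The counts below were recomputed under 16 alternatives, and so were the members and most other genes named from the pathway lists (15 for Dusp8, Dusp10 and Spry2, which the filter at 5 FPKM removes); marker genes were not. The summed level of the 9 genes had 1 alternative. Dusp16 was fitted with no filter alone. Here voom on the recovered reads was chosen after the data were seen. It called 1569 of the 11371 tested genes, and 10 genes of the pathway lists. The count of called phosphatase genes, 0 as reported (3 at an unadjusted p under 0.05), was 1 (Dusp5) with a mean of at least 5 FPKM, with the replicate block, with quantile normalization and with voom, and 0 to 1 when a library was left out (1, again Dusp5, without KO replicate 1). Called genes in all, 1240 as reported, were 588 with no filter, 805 with the replicate block, 373 with a term for Y-linked transcripts, 514 without the 2 libraries labelled KO that lack them, and 370 to 1598 when a library was left out (824 without KO replicate 1, and 531, 370 and 509 without WT replicates 1, 2 and 3). Called genes of the pathway lists, 8 as reported with Zfp36 counted once, were 4 with no filter, 3 with that term, 5 without those 2 libraries, and 3 to 10 when a library was left out (5, 3 and 5 without WT replicates 1, 2 and 3). The cause was not tested.

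Signs turned only for genes that were not called: Dusp4 at -0.15 with the term and at -0.15 without those 2 libraries, and Dusp7 at 0.005 with quantile normalization. When a library was left out, log2 fold changes ran from -0.0078 to 0.24 for Dusp4, -0.071 to 0.013 for Dusp6, -0.22 to 0.17 for Dusp7, -0.39 to -0.059 for Dusp8, -0.026 to 0.19 for Dusp10, -0.10 to 0.0092 for Mapk3 and -0.20 to 0.0074 for Fos. Leaving out those 2 libraries leaves 1 labelled KO, which is assumed to vary like the others, and with the term the difference also rests on it.

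Replicate numbers did not pair the samples: deviations of same-numbered libraries correlated at -0.0311, 0.045 and -0.116, and no library labelled KO correlated best with its own number. The replicate block moved Dusp5 past the threshold (limma adjusted p = 0.0466) and Map2k1 out of it (0.064), and changed no other call among the 8 tested members and the pathway genes refitted. Depth limits Dusp8 and Dusp16, with 25 to 65 reads per library.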
